A study of Homo sapiens with 2 samples.

Results

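The voltage-gated sodium and calcium channels of human cerebral organoids were described here through the 39 genes that encode their pore-forming and auxiliary subunits. Members were chosen by a rule on gene symbols that uses no measured value: 9 sodium channel alpha subunits (the SCNxA genes), 4 sodium channel beta subunits (the SCNxB genes), 10 calcium channel alpha1 subunits (the CACNA1 genes), 4 alpha2delta subunits (CACNA2D1 to CACNA2D4), 4 calcium channel beta subunits (CACNB1 to CACNB4) and 8 gamma subunits (CACNG1 to CACNG8). They were 39 of the 62704 genes counted, and each had at least 1 transcript in the retained barcodes of both libraries.

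The study asked how the shape and inner architecture of an organoid relate to the fates of its cells, and the 2 libraries here were made by split-pool barcoding, in which RNA is tagged inside fixed cells or nuclei over successive rounds of pooling. The library of single cells pooled control organoids (CO) sampled at days 45, 55 and 70, organoids that were dissociated at day 45, reaggregated and sampled at days 48, 55 and 70 (DISS), and constrained organoids (CONS), whose Matrigel was taken off at day 13 before embedding in 3% agarose and which were collected at day 55. The library of nuclei came from day 45 CO, both as whole organoids and as the cell suspensions obtained from them, although its treatment label also named embedding. All organoids were grown from H9, a single human embryonic stem cell line. Every barcode of a library carried the same sample name, so no barcode could be assigned to a condition, a day or an organoid. Each library therefore counted as 1 sample, no test between conditions or cell types was possible, and every value below describes these pooled libraries.

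After the limits on genes, transcripts and mitochondrial share, 20178 of 1303455 barcodes were kept in the cell library and 14228 of 197446 in the nuclei library, with medians of 2615 and 3890 transcripts. Clustering was run without the 39 channel genes, and clusters were named from marker lists, with some left unnamed for other features given with the methods. The cell library held 1732 radial glia-like, 4713 dividing radial glia-like, 1244 intermediate progenitor-like, 1603 excitatory neuron-like, 156 Cajal-Retzius-like and 1303 choroid plexus-like barcodes, and 46.7% of its barcodes stayed unnamed. The nuclei library held 3091, 3434, 493, 4064, 83 and 930 barcodes of these types, a further 308 cortical hem-like nuclei, and 12.8% unnamed. NEUROD6, a transcription factor of excitatory neurons, stood at 220 CPM (counts per 1000000 transcripts of all genes) in excitatory neuron-like cells against 24.7 CPM in radial glia-like cells, and at 108 against 4.3 CPM in nuclei. The libraries shared 99 barcode names among those kept. TTR, a choroid plexus transcript, lay between 172 and 328 CPM in the named types of the cell library other than choroid plexus-like. In nuclei it was at 72.4 CPM in cortical hem-like barcodes and between 7.98 and 10.95 CPM in the other such types. Choroid plexus-like barcodes held 3004 CPM in cells and 439 CPM in nuclei. The part of free RNA or doublets in these levels, or in the channel levels, was not tested.

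Voltage-gated sodium channels open on depolarization and carry the rising phase of the action potential, while voltage-gated calcium channels turn the same voltage change into calcium entry that drives transmitter release, dendritic signalling and transcription. Each is built around a single large alpha or alpha1 protein. Beta subunits tune gating and surface expression, alpha2delta subunits raise the number of calcium channels at the membrane and at synapses, and most gamma subunits act chiefly as partners of AMPA-type glutamate receptors. In developing cortex these genes are known for being switched on as newborn neurons leave the progenitor zones, and several are also expressed by progenitors before any neuron fires.

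Several of these genes carry a DNA word known to bind REST, the repressor that keeps neuronal genes off in progenitors. The core of that repressor element (RE1), the letters CAGCACC and GGACAG with any 2 bases between them, was searched on both strands of each gene body and the 5000 bases upstream in GRCh38, with gene models from GENCODE 44. It was found in 8 of the 39 members (20.5%), against 502 of 20002 protein-coding genes (2.51%) and 240 of 3666 protein-coding genes spanning at least 100 kb (6.55%). Only the matches in the 5 members that were also higher in excitatory neuron-like than in radial glia-like barcodes of both libraries are shown. That choice followed the calls and is no evidence on them. Capitals mark the 15-letter motif, sequences are written 5′ to 3′ on the strand of the match, and all lie in introns:
SCN2A, chr2:165238483-165238503, plus strand: tctCAGCACCATGGACAGcgt
SCN3B, chr11:123654067-123654087, plus strand: gctCAGCACCACGGACAGtcg
CACNA1A, chr19:13442062-13442082, minus strand: tttCAGCACCCTGGACAGctc
CACNA1B, chr9:137878788-137878808, minus strand: cgtCAGCACCGCGGACAGcgc
CACNA1B, chr9:137884737-137884757, minus strand: actCAGCACCATGGACAGcgc
CACNA2D3, chr3:54188343-54188363, plus strand: attCAGCACCAAGGACAGcga

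The first CACNA1B match lay 1009 bases from the annotated gene start and the SCN3B match 1160 bases from it. CACNA1H, CACNA2D2 and SCN10A held the remaining 3 matches. A match describes letters in the reference and says nothing of whether the factor was bound in these cells. REST itself was at 137 CPM in radial glia-like and 58.9 CPM in excitatory neuron-like cells, and at 83.4 and 25.5 CPM in nuclei. Choroid plexus-like barcodes held 138 CPM of REST in cells and 82.1 CPM in nuclei. Of the 8 members with the motif, 5 were higher in excitatory neuron-like cells, and of the 31 without it, 14 were, where 7.74% of all genes tested were higher by at least 2-fold. In nuclei these counts were 6 of 7 tested and 16 of 28 tested, where 11.5% of all genes were higher. Whether REST had a part in the levels was not tested.

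The 39 genes together supplied 407190 transcripts (2589 CPM) in cells and 228426 (3165 CPM) in nuclei. A level below is the CPM of a gene, its transcripts over those of all genes after summing the barcodes of a type, and bracketed ranges are exact 95% Poisson intervals that cover counting error only. A gene was called higher or lower where the ratio of levels was at least 2 and at least 20 transcripts were held by both types together. Sums of CPM over a group are not scaled by gene length, so they compare types and not groups. The calcium channel alpha1 genes summed in excitatory neuron-like barcodes to 2339 CPM [2319–2359] in cells and 3574 CPM [3547–3601] in nuclei, against 415 and 433 CPM in radial glia-like barcodes. The sodium channel alpha genes summed to 439 CPM [431–448] and 557 CPM [547–568], against 175 and 150 CPM in radial glia-like barcodes. Among the named types, the alpha2delta sum was highest in intermediate progenitor-like barcodes, at 1613 and 2046 CPM, and the calcium channel beta sum was highest in choroid plexus-like barcodes, at 564 and 845 CPM. Most of that alpha2delta sum was CACNA2D1, at 1582 and 2030 CPM. The alpha2delta sum of a class depends on how the clusters led by EBF2 were named, as given below. In bulk sums of this kind, fewer expressing cells and less RNA per cell cannot be told apart.

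**Figure D1:**
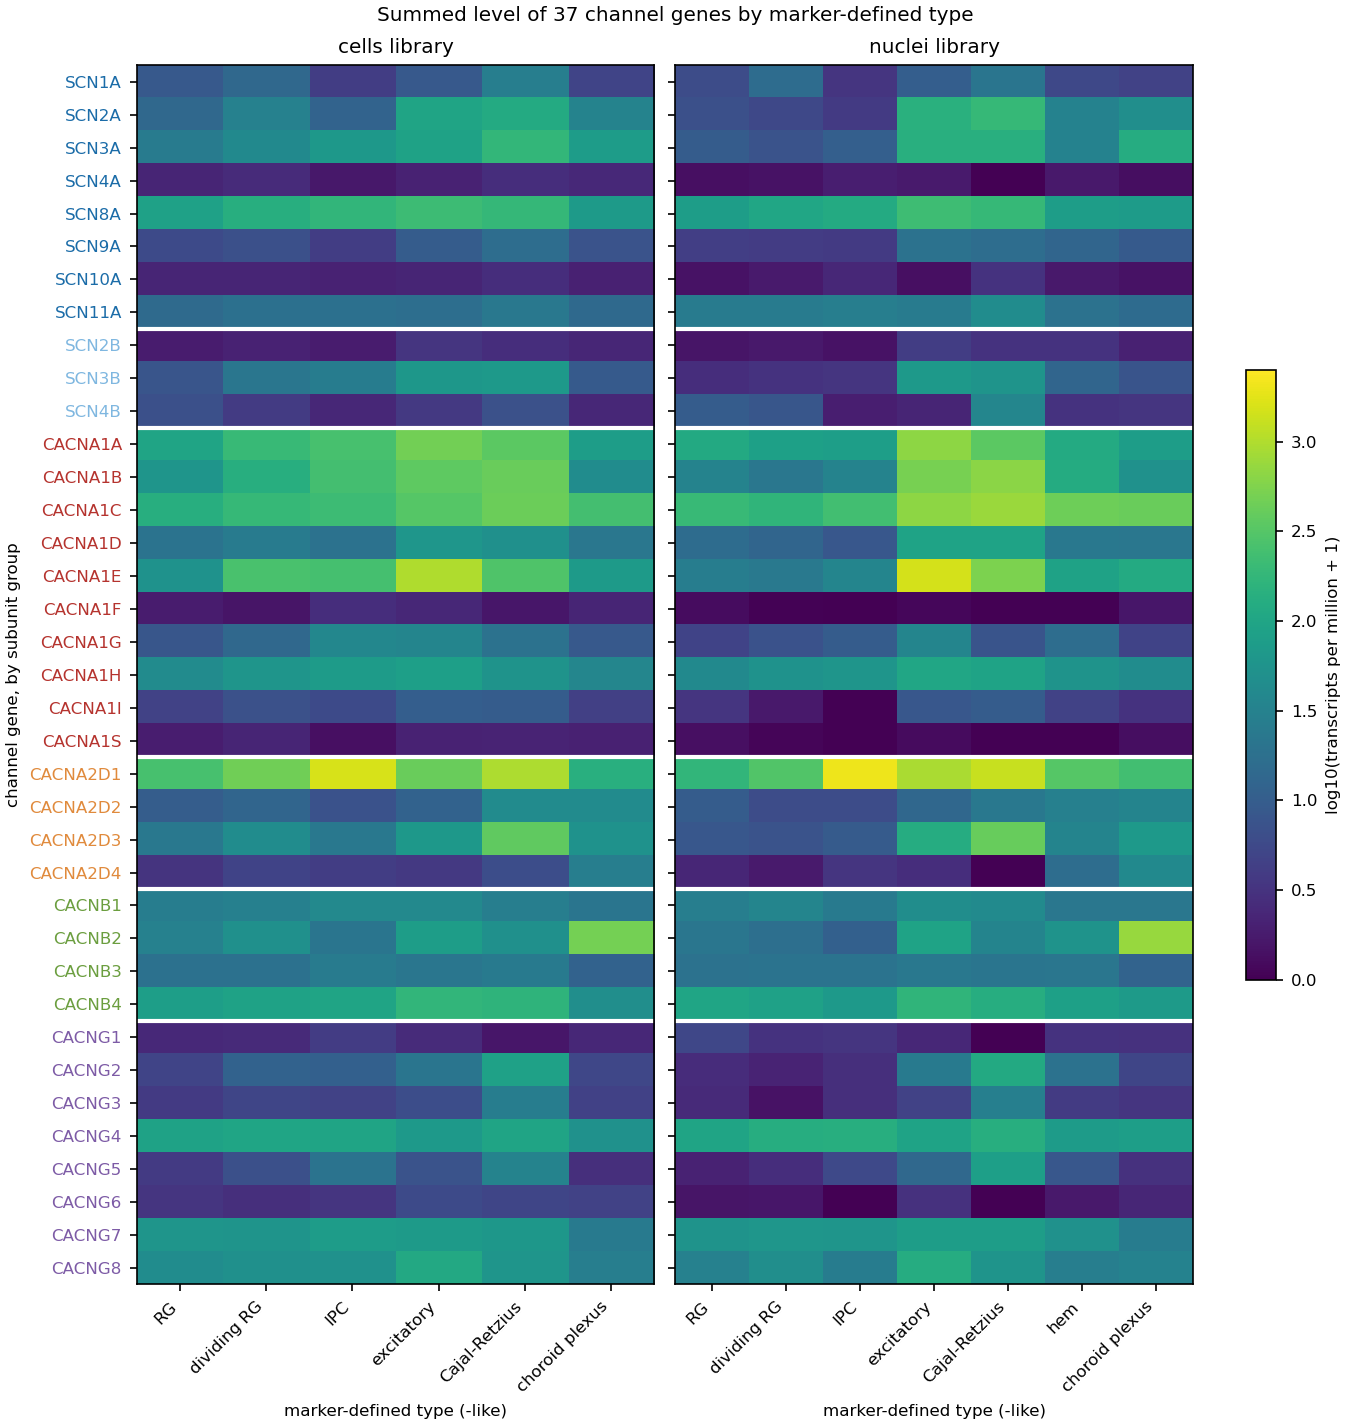
Summed level of 37 channel genes (rows, coloured by subunit group) in each marker-defined type (columns) of the cell and nuclei libraries, as log10(CPM + 1). CACNA1E reaches 1002 CPM in excitatory neuron-like cells and CACNA2D1 1582 CPM in intermediate progenitor-like cells, while CACNA1F, CACNA1S, SCN4A and SCN10A stay under 4 CPM in every column.

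Between excitatory neuron-like and radial glia-like barcodes, 19 of 39 members were higher and 2 lower in cells, where 7.74% of all genes tested were higher and 8.18% lower. In nuclei 22 of 35 members tested were higher and 3 lower, where 11.5% of all genes were higher and 16.6% lower. The median log2 ratio of the members was 0.97 in cells against -0.08 over all genes, and 1.77 in nuclei against -0.19 over all genes. Of these members, 18 were higher in both libraries and 2, SCN4B among them, were lower in both. All 18 had the larger ratio in nuclei, but how many of all genes higher in both libraries did so was not counted. The share of all genes called higher was itself larger in nuclei, 11.5% against 7.74%. The TTR levels given above also differed between the libraries, and the part of free RNA in these ratios was not tested. CACNB4 was called in cells alone, and CACNA1H, CACNA2D1, CACNG3 and SCN9A in nuclei alone, but whether the libraries differ for these genes was not tested. With barcodes weighted equally, CACNG3 and CACNA1H were higher in cells too, with ratios of 2.71 and 2.57. The CACNG3 call in nuclei was lost with finer clusters (Leiden resolution 2), at a ratio of 1.85. By group, the higher calls in cells were 7 of 10 alpha1 genes, 4 of 8 gamma genes, 3 of 9 sodium channel alpha genes, 2 of 4 genes in each of the beta groups, and 1 of 4 alpha2delta genes. In nuclei they were 8 of 8 alpha1 genes tested, 5 of 8 gamma genes, 4 of 7 sodium channel alpha genes tested, 2 of 4 sodium channel beta genes, 1 of 4 calcium channel beta genes and 2 of 4 alpha2delta genes, and the groups were not compared by a test.

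**Figure D2:**
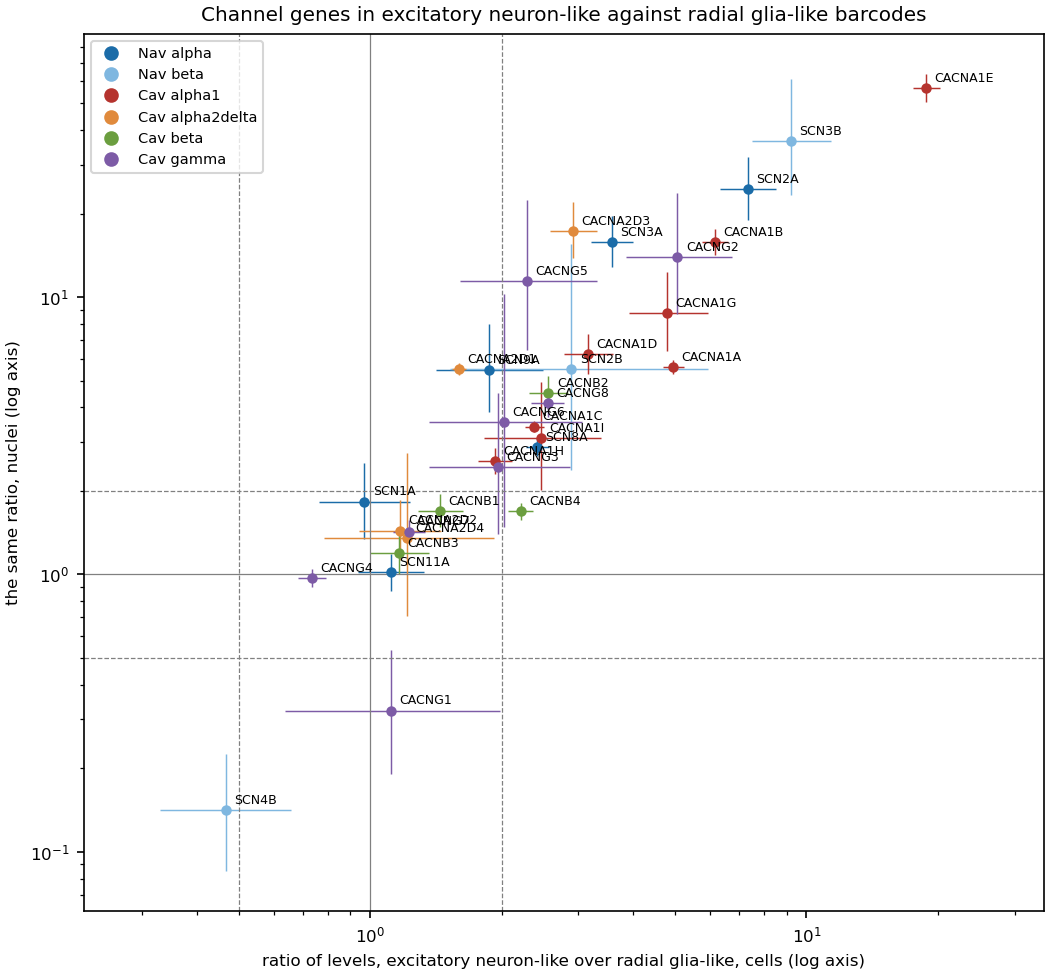
Ratio of levels in excitatory neuron-like over radial glia-like barcodes for channel genes tested in both libraries, cells on the x axis and nuclei on the y axis, both logarithmic, coloured by subunit group, each point 1 gene with 95% counting intervals as bars and dashed lines at 2-fold. CACNA1E, SCN3B and SCN2A lie farthest up and to the right, at 18.8, 9.19 and 7.33 in cells, and SCN4B lies at the lower left.

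Among the sodium channel alpha genes, SCN2A, which encodes the main channel of the early axon initial segment, was at 96.8 CPM [92.7–101] in excitatory neuron-like cells and 13.2 CPM [11.4–15.2] in radial glia-like cells, a ratio of 7.33 [6.33–8.53]. Over the 8 sub-libraries of the cell library its excitatory level had an SD of 10.8 CPM, which is technical spread only. In nuclei the levels were 142 CPM [136–147] and 5.79 CPM [4.43–7.44], a ratio of 24.5 [19.0–32.1]. The intervals of the 2 types did not overlap in either library. With every barcode thinned to 1000 transcripts, 9.30% of excitatory neuron-like and 0.462% of radial glia-like cells held a SCN2A transcript, against 2.84% of choroid plexus-like cells. In nuclei these shares were 10.5%, 0.518% and 3.87%. The choroid plexus-like level, 32.5 CPM in cells and 46.6 CPM in nuclei, was itself above the radial glia-like level. Median depths before thinning were 7443, 5813 and 6473 transcripts in cells.

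By first-round well, the unit in which cells received their first barcode, SCN2A in excitatory neuron-like cells ranged from 15.1 CPM through a median of 104 to 194 CPM over the 37 wells with at least 50000 transcripts of that type. In radial glia-like cells it ran from 0, in 5 wells, through a median of 6.94 to 46.7 CPM over 27 wells. The lowest excitatory wells thus overlapped the highest radial glia-like wells in cells. A well near the limit of 50000 transcripts holds few SCN2A transcripts at these levels. The part of counting error in the overlap was not tested. In the 12 wells of the nuclei library the 2 types did not overlap, with 98.4, 137 and 182 CPM (lowest, median and highest) in excitatory neuron-like and 0, 5.53 and 19.8 CPM in radial glia-like nuclei.

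SCN3A, a sodium channel that is prominent in fetal cortex, was at 90.1 CPM in excitatory neuron-like cells and 138 CPM in nuclei, and at 25.2 and 8.74 CPM in radial glia-like barcodes. It was less specific to neurons than SCN2A: choroid plexus-like barcodes held 74.5 CPM in cells and 128 CPM in nuclei. After thinning, 6.60% of choroid plexus-like cells and 8.92% of nuclei held a SCN3A transcript, beside 8.17% and 11.5% of excitatory neuron-like barcodes. Cajal-Retzius-like barcodes held 176 CPM in cells and 138 CPM in nuclei.

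SCN8A, which encodes the channel of mature initial segments and nodes, was present in every type. Its level was 210 CPM in excitatory neuron-like cells, 171 CPM in intermediate progenitor-like cells and 87.2 CPM in radial glia-like cells, and 219, 120 and 76.1 CPM in nuclei. Both ratios of excitatory neuron-like to radial glia-like barcodes, 2.41 and 2.88, were among the smaller ones called. SCN1A, the channel best known from inhibitory interneurons, was low in excitatory neuron-like barcodes (7.79 CPM in cells and 9.38 CPM in nuclei). Among the named types it was highest in Cajal-Retzius-like barcodes, at 27.8 CPM in cells and 19.7 CPM in nuclei. It was called higher in dividing radial glia-like than in radial glia-like nuclei, at 14.97 against 5.13 CPM. In cells the same contrast, 13.3 against 8.04 CPM, was not called. SCN9A, a channel of sensory neurons, was at 8.88 and 18.2 CPM in excitatory neuron-like barcodes.

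SCN4A and SCN10A were near the floor. SCN4A, the skeletal muscle channel, had 40 transcripts over all kept nuclei and SCN10A, a nociceptor channel, had 37, and neither exceeded 4 CPM in any type of either library. SCN11A, also a nociceptor channel, lay between 13.6 and 21.9 CPM across the named types of the cell library, with an excitatory neuron-like to radial glia-like ratio of 1.11.

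**Figure D3:**
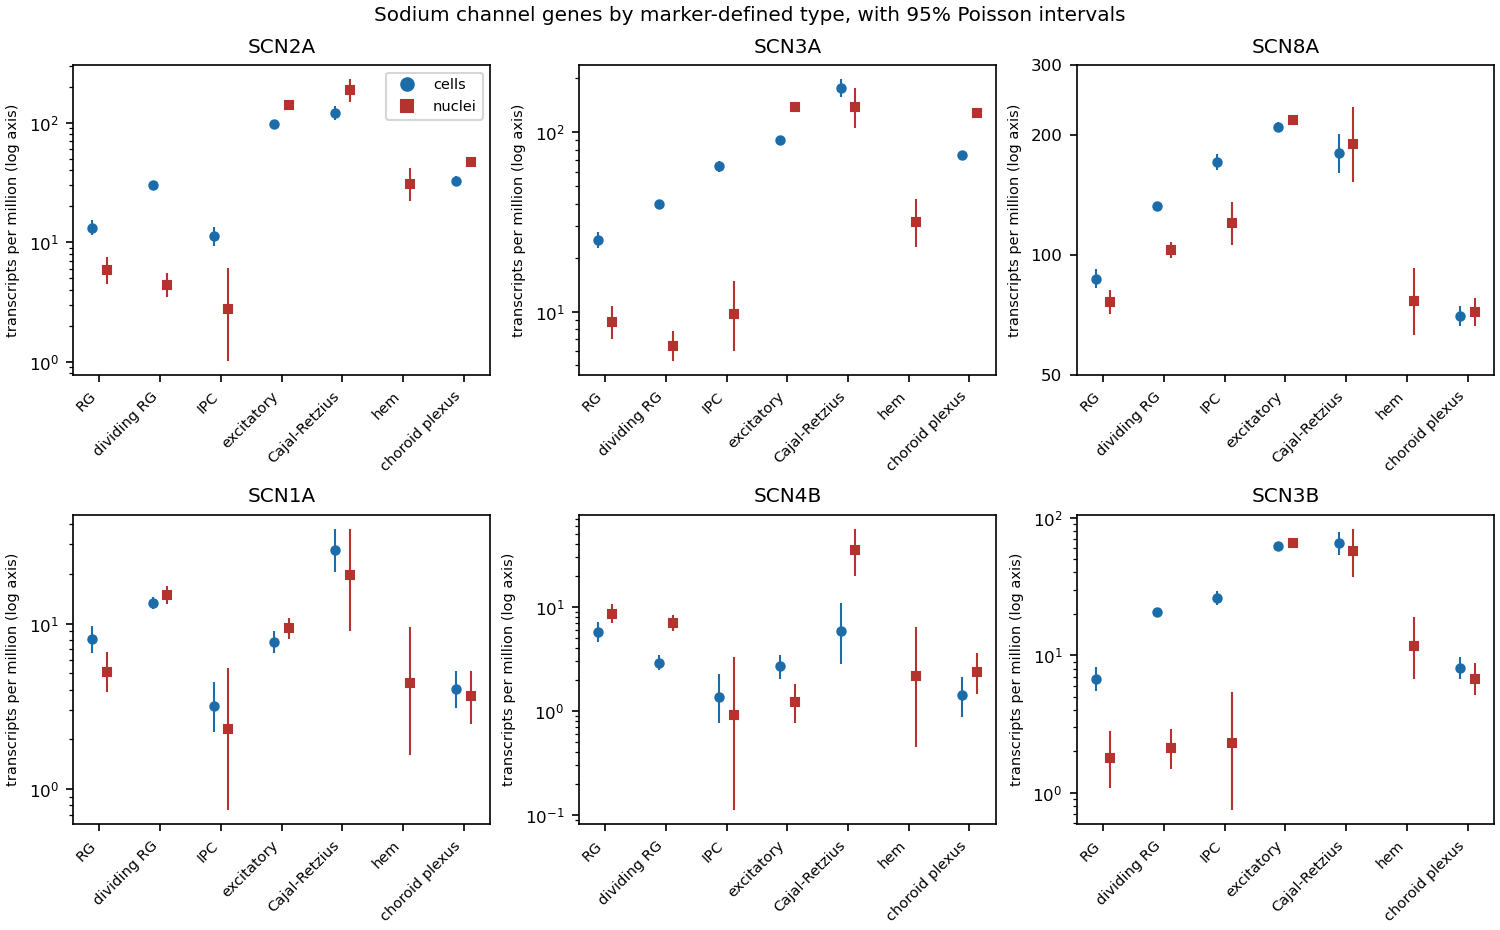
Level of sodium channel genes in each marker-defined type, in CPM on a logarithmic axis, with cells and nuclei as separate points and bars for exact 95% Poisson intervals. SCN2A and SCN3B sit highest in excitatory neuron-like and Cajal-Retzius-like barcodes (96.8 and 62.2 CPM in excitatory neuron-like cells), whereas SCN4B is lower in excitatory neuron-like than in radial glia-like barcodes.

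The sodium channel beta genes were called in both directions. SCN3B, whose protein associates with the alpha subunit without a covalent bond, was at 62.2 CPM [59.0–65.6] in excitatory neuron-like and 6.77 CPM in radial glia-like cells, a ratio of 9.19 [7.51–11.4]. In nuclei the levels were 66.0 CPM [62.4–69.8] and 1.80 CPM, a ratio of 36.6 [23.3–61.0]. SCN2B, which is linked to the alpha subunit by a disulfide bond, was also higher, with ratios of 2.89 and 5.49, but stayed at 2.32 and 3.13 CPM. SCN4B was lower in excitatory neuron-like than in radial glia-like barcodes, at 2.69 against 5.76 CPM in cells and 1.22 against 8.64 CPM in nuclei.

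By well, SCN3B in excitatory neuron-like cells ran from 23.7 through 62.6 to 119 CPM and in radial glia-like cells from 0, in 10 wells, through 3.47 to 30.4 CPM. The ranges overlapped in cells, where the part of counting error in wells of few transcripts was not tested. They did not overlap in nuclei, where they ran from 51.7 to 85.5 CPM and from 0 to 6.61 CPM.

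Genes that lie side by side were not all called alike. SCN1A, SCN2A, SCN3A and SCN9A lie in a block of 1288 kb on chromosome 2 (GRCh38 165087526 to 166376001), where SCN2A and SCN3A were higher in excitatory neuron-like barcodes of both libraries, SCN9A in nuclei and SCN1A in neither. SCN4B and SCN2B, within 43.3 kb on chromosome 11, were called in opposite directions in both libraries. SCN2A and SCN3A overlap over 9.06 kb on opposite strands, and a non-coding gene overlaps SCN3A over its whole length. Another non-coding gene covers the whole of SCN1A and of SCN9A on the opposite strand. Reads of overlapping genes cannot be told apart where strand was ignored in counting.

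Among the calcium channel alpha1 genes, CACNA1E, which encodes the R-type channel, had the largest ratio of all members. It lies on chromosome 1 (GRCh38 181317690 to 181813262, plus strand) and was at 1002 CPM [989–1016] in excitatory neuron-like cells and 53.3 CPM in radial glia-like cells, a ratio of 18.8 [17.5–20.2]. In nuclei the levels were 1507 and 26.6 CPM, a ratio of 56.7 [50.4–64.0]. After thinning, 65.5% [63.1–67.8, exact binomial] of excitatory neuron-like cells and 59.4% of nuclei held a CACNA1E transcript. The shares were 4.503% and 3.11% in radial glia-like and 4.45% and 4.84% in choroid plexus-like barcodes, where the summed levels were 71.2 CPM in cells and 118 CPM in nuclei. Barcodes of 10 to 100 transcripts, too shallow to be kept, carried 359 CPM in cells and 510 CPM in nuclei.

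The wells bore the same order. CACNA1E in excitatory neuron-like cells ranged from 516 through 1253 to 2816 CPM over 37 wells, and in radial glia-like cells from 6.72 through 44.2 to 131 CPM over 27 wells, with no overlap. In nuclei it ranged from 1102 through 1551 to 1779 CPM and from 6.68 through 24.4 to 47.7 CPM over 12 wells.

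Of the channels known from presynaptic terminals, CACNA1A, the P/Q-type channel, was at 470 CPM in excitatory neuron-like and 94.9 CPM in radial glia-like cells, and at 653 and 117 CPM in nuclei. CACNA1B, the N-type channel, was at 359 and 58.3 CPM in cells and at 507 and 32.1 CPM in nuclei, ratios of 6.16 and 15.8. Cajal-Retzius-like barcodes held still more CACNA1B, 425 CPM in cells and 637 CPM in nuclei. Of the L-type channels, CACNA1C was present in every type, at 319 CPM in excitatory neuron-like, 239 CPM in choroid plexus-like and 134 CPM in radial glia-like cells and at 669.6, 423 and 196 CPM in nuclei, while CACNA1D was at 59.8 CPM in excitatory neuron-like and 19.0 CPM in radial glia-like cells.

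Of the T-type channels, which open near the resting potential, CACNA1G was at 34.4 CPM in excitatory neuron-like, 36.2 CPM in intermediate progenitor-like and 7.17 CPM in radial glia-like cells, and at 34.2, 8.79 and 3.89 CPM in nuclei. CACNA1H was at 82.2 and 42.6 CPM in excitatory neuron-like and radial glia-like cells, a ratio of 1.93 that fell just short of a call, and at 102 and 39.9 CPM in nuclei, a ratio of 2.57. CACNA1I stayed at or under 11.1 CPM in every type. CACNA1S, the channel of skeletal muscle, and CACNA1F, that of photoreceptors, had 19 and 13 transcripts in all kept nuclei.

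Levels of different genes were also given per length, by exon and by whole gene span. Whether either scale makes genes comparable was not tested, and whether introns were counted is not given. Per kb of exon, excitatory neuron-like cells held 61.0 CPM of CACNA1E, 55.0 CPM of CACNA2D1, 54.3 CPM of CACNA1A, 36.7 CPM of CACNA1B, 25.8 CPM of CACNG7 and 23.2 CPM of CACNA1C, against 18.2 CPM of SCN8A, 11.03 CPM of SCN2A and 9.89 CPM of SCN3A. In nuclei CACNA2D1 led on the same scale, at 124 CPM per kb of exon, ahead of CACNA1E at 91.8. That order did not hold in every setting. Before scaling, CACNA2D1 in these nuclei fell from 938 to 595 CPM at lowest, and CACNA1E from 1507 to 1386 CPM at lowest. Per kb of the whole gene span the order changed, and CACNG8 led with 4.15 CPM per kb in cells and 4.62 in nuclei. SCN3B at 2.39, CACNG7 at 2.05 and CACNA1E at 2.02 CPM per kb came next in cells, and CACNA1E at 3.04 and SCN3B at 2.53 in nuclei.

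Each of the 4 alpha2delta genes had its highest level, among the named types, outside the excitatory neuron-like class in both libraries. The class levels of CACNA2D1 depend on how the clusters led by EBF2 were named, as given with the clusters. Over the settings tried, intermediate progenitor-like cells held at least 1005 CPM of CACNA2D1 and excitatory neuron-like cells at most 539 CPM. In nuclei these limits were 2004 and 983 CPM. CACNA2D1, whose protein binds gabapentin, was at 1582 CPM in intermediate progenitor-like cells, 967 CPM in Cajal-Retzius-like, 415 CPM in excitatory neuron-like and 260 CPM in radial glia-like cells. In nuclei these levels were 2030, 1299, 938 and 170 CPM. The intermediate progenitor-like level in cells was 1005 CPM at Leiden resolution 0.5 and 1079 CPM at resolution 2. After thinning, 71.4% of intermediate progenitor-like cells and 76.1% of nuclei held a CACNA2D1 transcript, against 9.90% and 10.6% of choroid plexus-like barcodes.

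CACNA2D3 was, among the named types, highest in Cajal-Retzius-like barcodes, at 374 CPM in cells and 407 CPM in nuclei, against 63.4 and 127 CPM in excitatory neuron-like barcodes. CACNA2D4 and CACNA2D2 were higher in choroid plexus-like than in radial glia-like barcodes. CACNA2D4 was at 27.2 against 2.21 CPM in cells and at 40.3 against 1.33 CPM in nuclei, and CACNA2D2 was at 42.9 against 9.18 CPM and at 32.8 against 8.74 CPM.

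The levels of CACNA1E and CACNA2D1 were also read cluster by cluster within the neuronal lineage. In nuclei the excitatory neuron-like class held 5 clusters. CACNA1E was at 139 CPM in the cluster led by EBF2, 515 CPM in that led by HIF1A-AS3, 1425 CPM in that led by PRDM8, 2023 CPM in that led by CDH7 and 2207 CPM in that led by SLC24A2. CACNA2D1 in the same order of clusters was at 2754, 740, 1242, 461 and 432 CPM. The intermediate progenitor-like nuclei held 34.2 CPM of CACNA1E, which was 136 CPM at Leiden resolution 0.5, and 2030 CPM of CACNA2D1. In cells the intermediate progenitor-like class held 2 clusters, one led by NEUROD4 with 50.3 CPM of CACNA1E and 1499 CPM of CACNA2D1, and one led by EBF2 with 279 and 1595 CPM. Clusters led by EBF2 were thus named intermediate progenitor-like in cells and excitatory neuron-like in nuclei. The HIF1A-AS3-led nuclei were named excitatory neuron-like. Cells led by PDK1, with HIF1A-AS3, LINC02649 and ADARB2 also among their leading genes, stayed unnamed. Class values that compare the libraries carry both differences in naming.

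**Figure D4:**
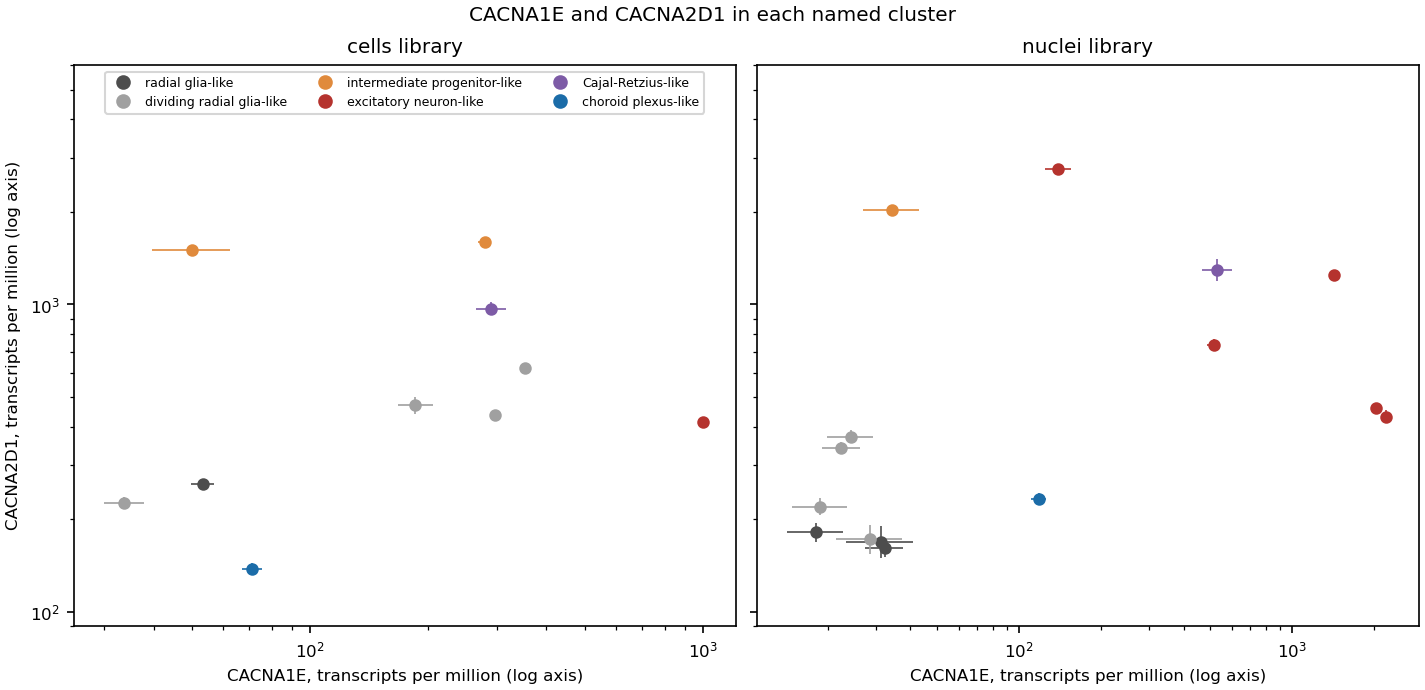
Level of CACNA1E (x axis) and CACNA2D1 (y axis) in the named clusters of the cell and nuclei libraries, without the cortical hem-like one, in CPM on logarithmic axes, each point 1 cluster coloured by type. In nuclei the excitatory neuron-like clusters run from the EBF2-led one at the upper left (139 and 2754 CPM) to the SLC24A2-led one at the lower right (2207 and 432 CPM).

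Among the calcium channel beta genes, CACNB2, best known as the beta subunit of heart muscle, marked the choroid plexus-like barcodes. It was at 487 CPM [476–498] there and 30.6 CPM in radial glia-like cells, a ratio of 15.9, and at 743 CPM [725–761] and 20.9 CPM in nuclei, a ratio of 35.6. After thinning, 31.8% of choroid plexus-like cells and 40.3% of nuclei held a CACNB2 transcript, against 6.93% and 6.52% of excitatory neuron-like barcodes. CACNB4, a beta subunit of brain, was at 173 and 78.4 CPM in excitatory neuron-like and radial glia-like cells and at 168 and 99.2 CPM in nuclei. CACNB1 and CACNB3 were not called between excitatory neuron-like and radial glia-like barcodes, and ranged from 20.0 to 38.9 CPM and from 10.7 to 24.6 CPM across the named types of the cell library.

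Choroid plexus-like against radial glia-like barcodes gave 6 members higher and 2 lower of 39 in cells, where 13.6% of all genes were higher and 7.66% lower, so the share of members called did not stand far from that of all genes. In nuclei 11 of 33 were higher and 4 lower, where 14.9% and 13.5% of all genes were. Of the 4 alpha2delta genes, 3 were higher in each library.

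The gamma genes again split by neighbour. CACNG2, the founding AMPA receptor auxiliary subunit also called stargazin, was at 20.0 CPM in excitatory neuron-like and 3.95 CPM in radial glia-like cells and at 23.8 and 1.71 CPM in nuclei. CACNG8, another AMPA receptor partner, was at 113 and 44.4 CPM in cells and at 126 and 30.4 CPM in nuclei. CACNG4, by contrast, was at 66.6 CPM in excitatory neuron-like and 90.7 CPM in radial glia-like cells, with ratios of 0.73 and 0.97, and CACNG7 had ratios of 1.22 and 1.43. CACNG6, CACNG7 and CACNG8 lie within 103 kb on chromosome 19 and CACNG1, CACNG4 and CACNG5 within 222 kb on chromosome 17, yet CACNG5 was called as higher in neurons and CACNG4 was not. In cells the CACNG5 call was lost at Leiden resolution 0.5, with a ratio of 1.60. CACNG1, a gamma subunit of skeletal muscle, stayed at or under 4.27 CPM in every type.

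Cajal-Retzius-like barcodes, the early neurons that secrete reelin, were few and were set against the excitatory neuron-like ones. In cells 8 of 39 members were higher and 3 lower, where 10.1% of all genes were higher and 9.25% lower, and in nuclei 6 of 35 were higher and 7 lower, where 12.8% and 19.7% of all genes were. Except for the members higher in cells, these shares lay near or under those of all genes. CACNG2 was at 87.7 CPM in cells and 116 CPM in nuclei, 4.38 and 4.87 times the excitatory neuron-like level. CACNG5 was 5.07 and 6.39 times that level. CACNG3 had ratios of 4.96 and 7.68 from 45 and 13 transcripts, and SCN4B reached 35.045 CPM in nuclei from 16 transcripts. CACNA1E was lower, at 289 and 530 CPM, ratios of 0.288 and 0.352.

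Intermediate progenitor-like against radial glia-like barcodes gave 11 members higher and 4 lower of 38 in cells, where 5.3% of all genes were higher and 9.99% lower. In nuclei 3 of 32 were higher and 8 lower, where 5.83% and 16.6% of all genes were. The 3 members higher in nuclei were higher in cells too: CACNA2D1, with ratios of 6.08 in cells and 11.9 in nuclei, CACNA1G with 5.05 and 2.26, and CACNG5 with 6.75 and 4.06. The CACNG5 level in nuclei, 4.63 CPM, ran from 1.46 CPM without the highest Scrublet scores, where the gene was no longer 2-fold higher, to 16.9 CPM at Leiden resolution 0.5, and that of CACNA1G from 6.43 to 27.2 CPM. CACNA1G was no longer 2-fold higher in nuclei with barcodes weighted equally or without the highest Scrublet scores. CACNA1E, CACNA1B, SCN3B and SCN3A were called as higher in cells, with ratios of 4.62, 4.16, 3.86 and 2.56, and not in nuclei, where they were at 34.2, 32.4, 2.31 and 9.71 CPM. At the coarser Leiden resolution of 0.5 the intermediate progenitor-like nuclei held 136, 226, 14.98 and 57.0 CPM of these genes, so their absence from the nuclei calls depended on how the class was cut. In cells the CACNA1E level of the class was 246 CPM, and 531 and 415 CPM at resolutions of 0.5 and 2. The cell class took 1109 of its 1244 barcodes from the EBF2-led cluster, which the nuclei class did not hold. Neuronal markers moved with the members in cells: RBFOX3 was at 1145 against 81.1 CPM and NEUROD6 at 224 against 24.7 CPM in intermediate progenitor-like and radial glia-like cells, beside 657 and 220 CPM in excitatory neuron-like cells. SOX2, a progenitor marker, was at 63.2 CPM in intermediate progenitor-like and 62.0 CPM in excitatory neuron-like cells. In nuclei RBFOX3 was at 255 against 29.7 CPM and NEUROD6 at 19.9 against 4.27 CPM, beside 1066 and 108 CPM in excitatory neuron-like nuclei. The part of neuronal RNA in these calls was not tested.

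Dividing radial glia-like against radial glia-like barcodes gave 8 members higher and 0 lower of 39 in cells, where 5.65% of all genes were higher and 2.09% lower. Among them were CACNA1E with a ratio of 4.91, SCN3B with 3.07 and SCN2A with 2.26, and the neuronal marker RBFOX3 moved with them, at 291 against 81.1 CPM. In nuclei 1 of 33 was higher and 3 were lower, where 4.28% and 7.98% of all genes were, and CACNA1E was at 22.6 against 26.6 CPM. The 4 dividing clusters of the cell library were unlike, with 33.7 CPM of CACNA1E in that led by HJURP and 186, 296 and 352 CPM in the others. The part that neuronal RNA in these barcodes had in the calls was not tested.

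Members were then compared between nuclei and cells within a type, which sets 2 different preparations and organoid pools side by side. The excitatory neuron-like classes also carry the differences in naming given with the clusters. In excitatory neuron-like barcodes 4 of 39 members were higher in nuclei and 5 lower, where 1.5% of all genes were higher and 28.9% lower, and the median log2 ratio was 0.23 for the members and -0.51 for all genes. CACNA2D1, CACNA1C, SCN9A and CACNG5 were the 4 higher ones, with ratios of 2.26, 2.10, 2.05 and 2.03. CACNA2D3 was not called, but stayed uncalled in only 3 of 9 other settings and was higher in the rest, with ratios up to 2.58. CACNA1F, CACNA1S, SCN10A, CACNG6 and SCN4B were lower, with ratios from 0.116 to 0.453, and all were under 5 CPM in excitatory neuron-like cells. Across the 39 genes the ratio had a Spearman rho of 0.560 with the span of the gene, a description over genes of the same 2 libraries. Without the EBF2-led cluster of nuclei, CACNA2D1 and CACNG5 were no longer 2-fold higher, and across settings their ratios went as low as 1.23 and 1.27.

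In radial glia-like barcodes 1 of 36 members was higher in nuclei and 10 were lower, where 1.25% of all genes were higher and 21.1% lower. SCN3B, SCN3A and SCN2A were among the lower ones, with ratios of 0.267, 0.347 and 0.439. Neuronal markers moved the same way between radial glia-like nuclei and cells, RBFOX3 at 29.7 against 81.1 CPM and NEUROD6 at 4.27 against 24.7 CPM, and their part in these ratios was not tested. In choroid plexus-like barcodes 0 of 38 were higher and 5 lower, where 1.22% and 25.4% of all genes were.

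**Figure D5:**
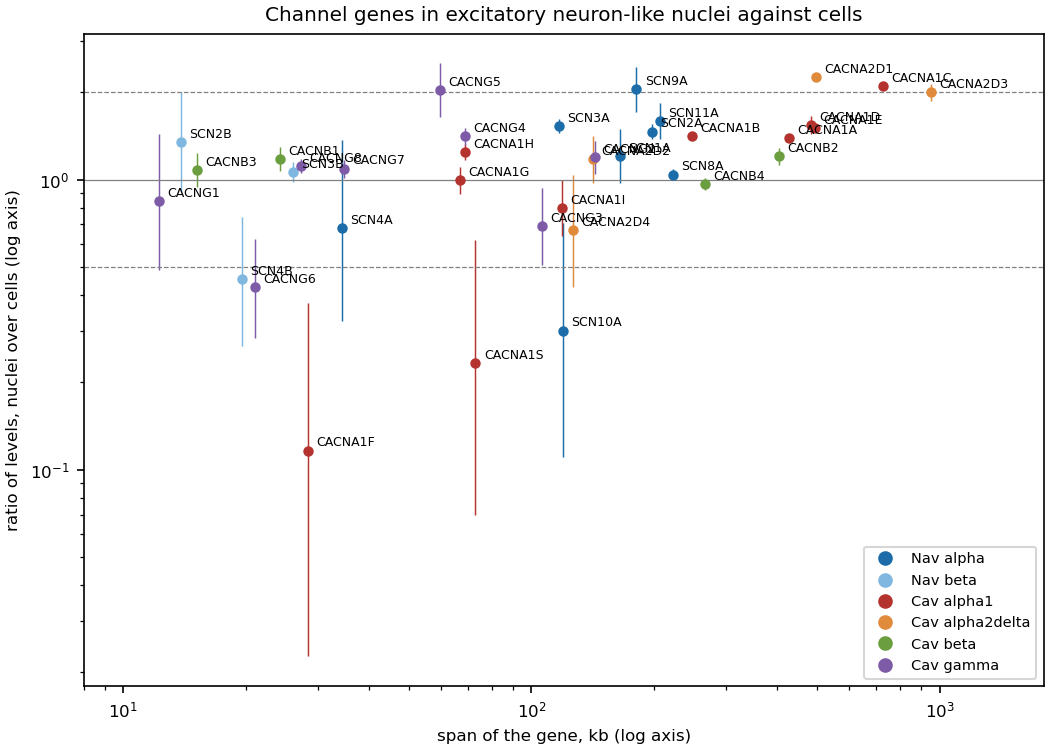
Ratio of levels in nuclei over cells for 37 channel genes in excitatory neuron-like barcodes (y axis, logarithmic) against the span of the gene in kb (x axis, logarithmic), each point 1 gene coloured by subunit group. CACNG6, with a short span, lies at 0.425 and CACNA2D1, with a long one, at 2.26.

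Genes that work beside the channels were read from lists of known partners over the same contrast of excitatory neuron-like and radial glia-like barcodes. Of 12 genes of the axon initial segment and sodium channel complex, 9 were higher and 0 lower in each library, where 7.74% of all genes were higher and 8.18% lower in cells and 11.5% and 16.6% in nuclei. The median log2 ratio of the list was 2.09 in cells and 3.25 in nuclei, against -0.08 and -0.19 over all genes. ANK3, the scaffold that anchors sodium channels there, had ratios of 5.54 in cells and 12.5 in nuclei, SPTBN4, its spectrin, 4.54 and 13.8, and NFASC, a cell adhesion molecule of the segment, 6.93 and 18.5. NEDD4L, a ubiquitin ligase that removes channels from the membrane, had ratios of 0.69 and 0.77.

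Of 14 calcium channel partners, 13 were tested in cells with 3 higher and 2 lower, and 12 in nuclei with 5 higher and 2 lower, beside the same shares of all genes. RIMS2, which tethers calcium channels at release sites, had ratios of 4.27 and 11.5, and CABP1, a calcium sensor, 5.96 and 9.04. CACHD1, a relative of the alpha2delta subunits, had ratios of 0.47 and 0.30. The complex of the sodium leak channel had 4 of 5 genes higher in each library, UNC80 with ratios of 6.96 and 24.1 among them, whereas NALCN, the pore itself, had ratios of 0.83 and 1.36. Of 6 intracellular calcium release channels, RYR2 (4.13 and 19.4) and RYR3 (2.27 and 17.1) were higher in both libraries, and ITPR1 was at 0.54 and 0.18. Of 5 sodium pump genes, 1 was higher and 1 lower in cells, and 1 was higher and 2 lower in nuclei.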

How the data were processed

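The authors demultiplexed reads with demuxFQ and ran spipe against GRCh38, and the deposited values were raw counts: transcripts per gene and barcode, one unfiltered matrix per library. The paper also applied DecontX against RNA contamination in its single cells and states that nuclei did not need it. The counts used here carry no such step. Whether counting used strand or introns is not given in the sources used here. Libraries held 254967545 (cells) and 82339738 (nuclei) transcripts. The channel genes, partner lists and types were chosen with earlier results of these data known. A barcode was kept if it exceeded 500 genes and 1000 transcripts with a mitochondrial share of 20% or less, a limit that removed 95 cells. Clustering used scanpy 1.11.5 and leidenalg 0.10.2 (Leiden resolution 1) under Python 3.11.15, without members and mitochondrial genes. A marker counted for a cluster if it was at least 1.5-fold up and in at least 10% of its barcodes, and the list with the largest share of such markers named the cluster, given at least 3 markers and 50% of the list. Clusters with 50% of the dividing or S phase list were also named dividing radial glia-like at 30% of the radial glia list where no list of a cell type reached 50%. A cluster stayed unnamed where over 80% of it came from 1 well, where the share of glycolysis markers was larger, where PAX3 was among its 10 leading genes, or where division markers came with a type other than radial glia or intermediate progenitors. These limits were set with the clusters in view. They left unnamed some clusters that held 50% or more of a hem, choroid plexus, radial glia, intermediate progenitor or excitatory neuron list. Scrublet marked 0 doublets in either library, so it did not work and none were removed, and doublets remain in the classes. Counts were summed per type and divided by all transcripts. Ratios of summed counts were checked on simulated data. These were Poisson counts with known folds and held no doublets, free RNA or naming errors, so the check does not cover those. Members were named with levels where they had at least 100 transcripts, and all 39 enter the counts and sums. A few genes are not reported here by name and are left out of the plots, which show 37 members or fewer. No comparison has a test. Alternatives changed the resolution, depth, mitochondrial limit, doublets, weighting, fold and count minimum. Gene positions and overlaps came from GENCODE, where 24 members overlapped another gene. Barcode names shared by the libraries numbered 70784.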

Additional observations from a re-analysis of the deposited data

Results flagged for a closer look

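Barcodes that no comparison used also held channel transcripts. In barcodes of 10 to 100 transcripts, below the limits for a cell, the 39 genes summed to 2571 CPM in the cell library from 88307 transcripts, against 2589 CPM in kept barcodes, and to 3056 CPM in the nuclei library from 20010 transcripts, against 3165 CPM.

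A cluster of 725 nuclei led by NXPH1, which reached the limit for no marker list, held 6391 CPM of the 39 genes from 21115 transcripts. It carried 1201 CPM of CACNA1C, 598 CPM of CACNA1E, 538 CPM of CACNA2D3, 258 CPM of SCN3A, 187 CPM of SCN2A and 132 CPM of CACNG2. An unnamed cluster of the cell library led by PDK1 held 3238 CPM of the 39 genes from 23750 transcripts.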

How the results depend on the processing

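With 1 sample per library, no value has a replicate check, doublets remain, no correction for free RNA was made, and intervals cover counting error only. No paired analysis was possible because each library is a single sample and no result comes from a test. The count of 19 members higher in excitatory neuron-like cells lay between 18 and 24 under the other settings and fell to 9 at a fold of 3. The share of all genes called was 7.74% in the main setting. It was 3.69% at a fold of 3, 14.8% at a fold of 1.5 and 19.5% with a minimum of 1 transcript. It could not be computed at Leiden resolution 2, where no cluster met the radial glia-like rule without dividing. The count of 22 in nuclei lay between 19 and 25, while the share of all genes ran from 7.12% at a fold of 3 to 22.3% with a minimum of 1 transcript. In cells 17 of the 19 genes and in nuclei 21 of the 22 were called in every setting that changed the barcodes or their weight, and no called direction turned. The count of 4 members higher in nuclei than in cells became 2 with barcodes weighted equally, 9 at a fold of 1.5 and 0 at a fold of 3, and none of the 4 was called in every setting. Of all genes, 1.93%, 4.22% and 0.408% were higher at these settings. With a minimum of 1 transcript the members called stayed at 4, where 6.03% of all genes were higher. The nuclei over cells ratios fell to 1.23 for CACNA2D1 and 1.27 for CACNG5 at lowest.

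The sum of sodium channel alpha genes in excitatory neuron-like cells moved from 439 CPM to 411 at Leiden resolution 2 and 454 with equal weights. In nuclei it moved from 557 CPM to 618 and 597 at resolutions 0.5 and 2, 574 above 3000 transcripts and 521 with equal weights. The calcium channel alpha1 sum in cells moved from 2339 CPM to 2317 and 2259 at these resolutions, 2369 without the highest Scrublet scores, 2810 with equal weights and 2385 without mitochondrial transcripts. In nuclei it moved from 3574 CPM to 4269 and 3943, 3612 without those scores, 3648 above 3000 transcripts and 3436 with equal weights. As settings chosen after seeing the data, leaving out the EBF2-led cluster gave 592 and 3912 CPM in nuclei and leaving out the HIF1A-AS3-led cluster 570.0 and 3799 CPM. Of 3226 single levels under alternatives, 2768 stayed within their counting interval and 101 moved by over 1.5 times, 34 of them at resolution 0.5, 32 with equal weights and 27 at resolution 2. Resolution 0.5 gave no Cajal-Retzius-like cluster in either library and no cortical hem-like cluster in nuclei. Levels of these classes are missing from that setting.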
